A study of Sus scrofa with 37 samples.

Results

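The neutrophil marker genes followed here are 8 genes chosen by symbol, IL1R2, CSF3R, S100A8, S100A9, S100A12, NCF1, CYBB and ALOX5AP. Of these, 6 matched a row of the count table of 9418 rows, and all 6 passed the filter on low counts along with 9411 genes in all. S100A9 and CYBB were not analysed here. The members were measured by RNA sequencing of skeletal muscle from Bama minipigs, a miniature pig breed, after contusion, which is a blunt mechanical injury. The 28 injured libraries came from 7 times, 4 libraries each, spaced every 4 h up to 24 h with a last one at 48 h. A further 9 libraries are labelled as controls. Control libraries carry the same treatment label, mechanical damage, as the injured ones, and how control muscle was handled is not said. Which of the 37 libraries share one of the 8 animals is not said either, so each p-value below measures only the spread between libraries.

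Neutrophils are short-lived white blood cells that leave the blood within hours of tissue damage and are usually the first leukocytes to reach injured muscle. They are drawn by chemokines and leukotrienes, release a burst of superoxide made by the NADPH oxidase, and carry large stores of the calcium-binding calgranulins in their cytoplasm. The members cover these steps. IL1R2 is a decoy receptor that binds interleukin 1 without signalling. CSF3R is the receptor of granulocyte colony-stimulating factor, the growth factor of the lineage. S100A8 and S100A12 are calgranulins. NCF1 is the p47-phox organiser of the NADPH oxidase, and ALOX5AP is the activating protein of 5-lipoxygenase in leukotriene synthesis. Monocytes and macrophages are known to express several of these genes too, NCF1 and ALOX5AP among them.

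Levels are CPM, each gene's count scaled by library size after TMM normalisation, with standard deviations between libraries. Column totals ran from 9.86 to 22.88 M counts, so that a count of 3 was worth 0.108 to 0.378 CPM. The labelled tissue was visible in every library, the 7 tested skeletal muscle fibre markers summing to between 22300 and 124000 CPM. The libraries also fell into 5 sets that no label names, defined with earlier results of these data known from column totals and from the levels of C1QBP, NDUFAF8 and ND6. Set 1 consisted of all 16 h libraries, 3 of the 8 h libraries and 2 controls. In set 2 were 3 of the 4 h libraries, 2 each from 12 and 20 h, and 1 from 24 h. Set 3 was made up of the remaining 4 h library and 2 from 24 h. Of the controls, 4 stood in set 4 beside 2 libraries each from 12 and 20 h. The last 3 controls stood in set 5 beside all 48 h libraries and 1 each from 8 and 24 h. Since the sets and the times overlap only in part, values within a set are given for the 6 members, and were not computed for the other gene lists.

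The neutrophil markers were higher on average from 8 h to 24 h after contusion, with a wide spread between libraries. Summed over the 6 members, the level was 297, 200, 87.2 and 20.0 CPM in the 8 h libraries (151 ± 122 CPM, SD, n = 4), against 2.31 to 11.8 CPM with a median of 5.74 CPM in the controls (6.21 ± 3.38 CPM, SD, n = 9). Every 8 h library lay above every control. Before that, at 4 h, it was 9.67 ± 5.83 CPM. After it, the sum was 46.3 ± 53.8 CPM at 12 h, 70.1 ± 46.1 CPM at 16 h and 51.5 ± 33.9 CPM at 20 h. The 12 h libraries had 126, 34.0, 13.9 and 11.8 CPM, the last level with the highest control. By 24 h the sum was 39.9 ± 24.3 CPM, and by 48 h 20.9 ± 17.6 CPM (SD, n = 4 at each time). In 23 of the 28 injured libraries the sum exceeded that of every control. In bulk tissue, more neutrophils and more RNA of these genes per cell cannot be told apart.

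**Figure D1:**
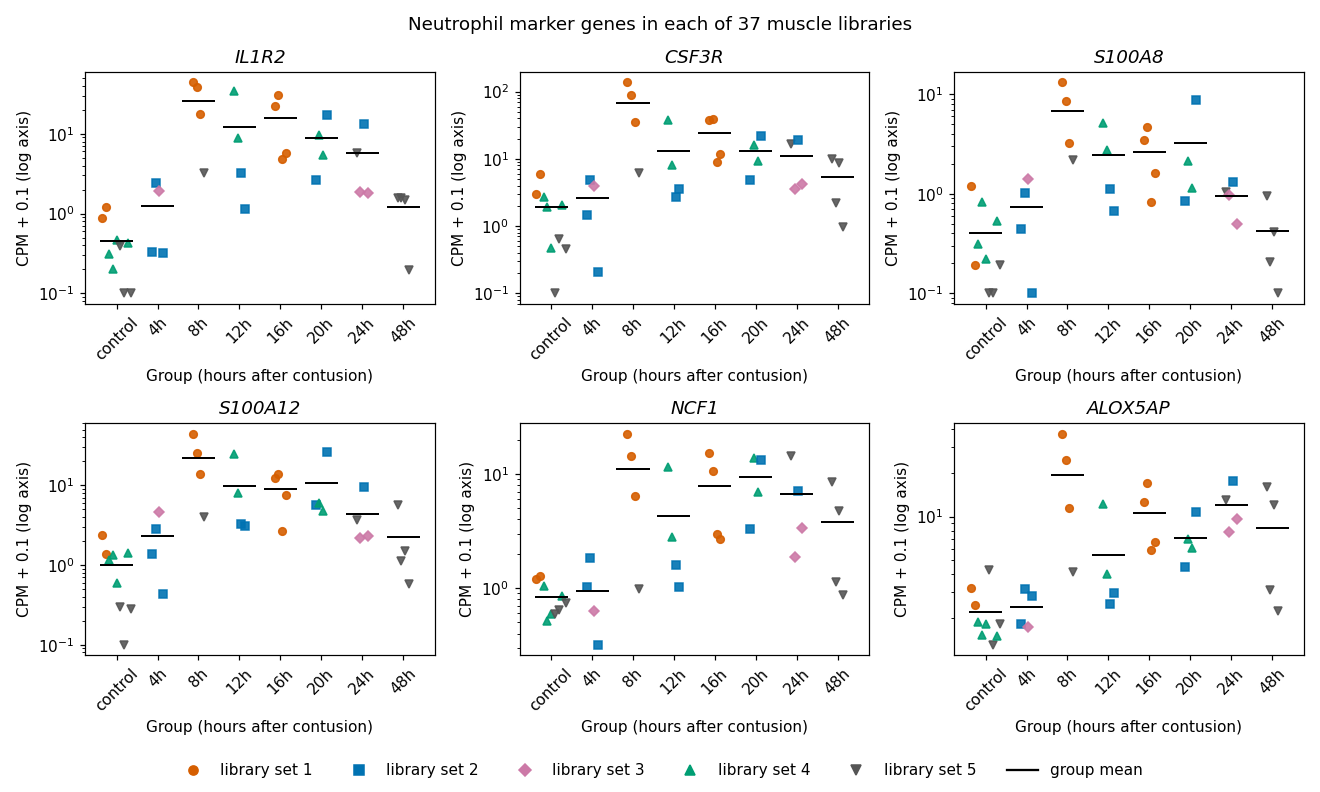
CPM of each marker gene (log axis, with 0.1 added so that zeros can be drawn) in the 9 control libraries and in the 4 libraries at each time after contusion. Each point is 1 library, coloured by library set, and the black line is the group mean. All 6 genes have their highest library at 8 h, replicate 1, while the 8 h library of set 5 lies below the other 3.

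IL1R2, the interleukin 1 decoy receptor (chromosome 3, 52367434 to 52406393 in Sscrofa11.1), showed the largest fold changes of the 6 genes from 8 to 24 h. The 8 h libraries had 44.0, 38, 17.8 and 3.09 CPM, against 0 to 1.10 CPM with a median of 0.293 CPM in the controls. No 8 h library overlapped the controls, and the log2 fold change was 6.09 ± 0.82 (SE, edgeR adjusted p = 4.67e-07), rank 8 of all genes tested by the size of the rise. At 12 h the values spread widely, with 34.6, 8.87, 3.15 and 1.03 CPM, the lowest falling among the controls. The 16 h libraries had 22.4, 31.0, 4.69 and 5.64 CPM, and those at 20 h had 2.52, 9.48, 5.31 and 17.3 CPM. Both groups lay wholly above the controls. At 24 h the values were 5.57, 1.76, 13.2 and 1.73 CPM, again all above the controls. At 48 h they were 1.47, 1.46, 1.39 and 0.0966 CPM, and at 4 h 0.229, 2.34, 1.81 and 0.219 CPM. Neither passed the test, with log2 fold changes of 1.59 ± 0.98 at 48 h (edgeR adjusted p = 0.264) and 1.69 ± 0.98 at 4 h (edgeR adjusted p = 0.231). IL1R2 had under 3 counts in 4 of the 9 controls, so the size of its fold changes rests on few counts.

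CSF3R, the receptor of granulocyte colony-stimulating factor (chromosome 6, 92550159 to 92565798), had 137, 88.9, 34.7 and 5.96 CPM at 8 h, against 0 to 5.75 CPM with a median of 1.84 CPM in the controls. The groups did not overlap, though the lowest 8 h library and the highest control were close. The log2 fold change was 5.16 ± 0.77 (SE, edgeR adjusted p = 2.4e-06). The level was then 37.7, 7.89, 2.65 and 3.44 CPM at 12 h and 37.2, 39.5, 8.98 and 11.6 CPM at 16 h. The 16 h libraries all exceeded the controls, and 2 of the 4 at 12 h did. It was 4.75, 15.7, 9.22 and 22.1 CPM at 20 h and 16.4, 3.41, 19.2 and 4.18 CPM at 24 h, with 3 libraries above the controls at 20 h and 2 at 24 h. CSF3R had 9.87, 2.08, 8.57 and 0.869 CPM at 48 h (log2 fold change 1.56 ± 0.80, edgeR adjusted p = 0.171) and 1.37, 4.79, 3.80 and 0.110 CPM at 4 h (0.48 ± 0.87, edgeR adjusted p = 0.74). The RefSeq span of CSF3R overlaps that of 1 other annotated gene, and the strand setting is not stated. Only whole spans were compared, so whether reads of that gene entered the CSF3R count was not examined.

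The calgranulins S100A8 (chromosome 4, 96209670 to 96210603) and S100A12 (chromosome 4, 96225691 to 96227030) lie close together in the pig genome. S100A8 had 13.0, 8.51, 3.11 and 2.10 CPM at 8 h, against 0 to 1.10 CPM with a median of 0.123 CPM in the controls, 6 of which held under 3 counts. All 8 h libraries lay above the controls, and the log2 fold change was 4.34 ± 0.74 (SE, edgeR adjusted p = 1.49e-05). It had 5.08, 2.63, 1.01 and 0.573 CPM at 12 h and 3.37, 4.57, 0.726 and 1.51 CPM at 16 h. These groups overlapped the controls at their low end. At 20 h S100A8 had 0.746, 2.02, 1.05 and 8.58 CPM, replicate 4 standing far above the others. The call at 20 h (3.25 ± 0.75, edgeR adjusted p = 0.000623) was lost without that library (1.96, edgeR adjusted p = 0.0515). At 24 h it had 0.941, 0.880, 1.22 and 0.396 CPM, and at 48 h 0.858, 0.104, 0.309 and 0 CPM. S100A8 was the only member not called at 24 h (log2 fold change 1.36 ± 0.82, edgeR adjusted p = 0.161). Its 48 h values all lay within the control range, as did 3 of the 4 h values, which were 0.343, 0.917, 1.29 and 0 CPM.

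S100A12 had 44.2, 25.6, 13.9 and 3.86 CPM at 8 h, against 0 to 2.28 CPM with a median of 1.05 CPM in the controls. The groups did not overlap, and the log2 fold change was 4.57 ± 0.70 (SE, edgeR adjusted p = 3.26e-06). It was the only member with all 4 libraries above every control at 12 h, with 24.6, 7.99, 3.15 and 2.98 CPM (log2 fold change 3.40 ± 0.71, edgeR adjusted p = 0.00071). The 16 h libraries had 12.2, 13.8, 2.58 and 7.42 CPM, and the 20 h libraries 5.50, 5.83, 4.61 and 26.2 CPM. Both groups were again wholly above the controls. At 24 h S100A12 had 3.55, 2.09, 9.44 and 2.23 CPM, with 2 of the 4 libraries above the controls (log2 fold change 2.21 ± 0.72, edgeR adjusted p = 0.0102). Without replicate 3 this call was lost (1.51, edgeR adjusted p = 0.108). At 48 h it had 5.58, 1.04, 1.39 and 0.483 CPM (edgeR adjusted p = 0.248), and at 4 h 1.26, 2.75, 4.56 and 0.329 CPM (edgeR adjusted p = 0.224).

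NCF1, the p47-phox subunit (chromosome 3, 11820367 to 11834394), had 22.4, 14.4, 6.38 and 0.883 CPM at 8 h, against 0.410 to 1.19 CPM with a median of 0.634 CPM in the controls. Replicate 4 at 8 h lay among the controls, unlike for the receptors and calgranulins. The log2 fold change was 3.88 ± 0.67 (SE, edgeR adjusted p = 1.94e-05). NCF1 had 11.5, 2.73, 1.51 and 0.916 CPM at 12 h, and 15.1, 10.6, 2.91 and 2.61 CPM at 16 h. From 16 to 24 h every injured library exceeded every control, with 3.17, 13.8, 6.92 and 13.3 CPM at 20 h and 14.2, 1.76, 6.93 and 3.24 CPM at 24 h. At 48 h the libraries split, with 8.46 and 4.63 CPM in replicates 1 and 3 and 1.04 and 0.773 CPM in replicates 2 and 4. NCF1 was still called at 48 h (log2 fold change 2.35 ± 0.70, edgeR adjusted p = 0.0161), but not without replicate 1 (1.55, edgeR adjusted p = 0.265) or replicate 3 (2.22, edgeR adjusted p = 0.0664). Its 4 h values, 0.915, 1.73, 0.526 and 0.219 CPM, lay around the controls (0.17 ± 0.84, edgeR adjusted p = 0.907). NCF1 has near-identical pseudogenes in humans, and whether the pig genome holds such copies was not examined here.

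ALOX5AP, the 5-lipoxygenase activating protein (chromosome 11, 7371328 to 7438111), had 37.0, 24.4, 11.4 and 4.08 CPM at 8 h, against 1.21 to 4.20 CPM with a median of 1.72 CPM in the controls. Replicate 4 at 8 h again fell within the control range, and the log2 fold change was 3.17 ± 0.46 (SE, edgeR adjusted p = 1.64e-06). It had 12.1, 3.90, 2.40 and 2.86 CPM at 12 h, when only replicate 1 exceeded the controls (1.33 ± 0.49, edgeR adjusted p = 0.0381). That call was lost without replicate 1 (0.53, edgeR adjusted p = 0.51) and without any of controls 3, 4, 7, 8 and 9 (edgeR adjusted p = 0.0537 to 0.0582). From 16 to 24 h no injured library overlapped the controls. ALOX5AP had 12.5, 16.8, 5.81 and 6.60 CPM at 16 h, 4.38, 6.91, 5.94 and 10.6 CPM at 20 h, and 12.8, 7.74, 17.4 and 9.54 CPM at 24 h. At 48 h it had 15.9 and 12.0 CPM in replicates 1 and 3, and 3.02 and 2.12 CPM in replicates 2 and 4 (1.97 ± 0.47, edgeR adjusted p = 0.00354). Without replicate 1 this call was lost (1.43, edgeR adjusted p = 0.104). The 4 h values, 1.71, 3.06, 1.64 and 2.74 CPM, were within the control range (0.09 ± 0.53, edgeR adjusted p = 0.922).

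All 6 members were called higher at 8, 12, 16 and 20 h by edgeR's quasi-likelihood test at an adjusted p under 0.05. At 24 h 5 were higher, and at 48 h 2. Over all genes tested, the share called higher was 25.8% at 8 h and 16.3% at 12 h, then 25.3% at 16 h and 25.4% at 20 h, and last 26.8% at 24 h and 12.8% at 48 h. The median log2 fold change of the members was 4.46 at 8 h and 2.82 at 12 h, then 3.34 at 16 h and 3.39 at 20 h, and last 2.49 at 24 h and 1.57 at 48 h. That of all genes lay between -0.07 and -0.02. At 4 h edgeR and DESeq2 called 0 members and 0 had an unadjusted p under 0.05, although 9.22% of all genes were higher. With the 5 sets as a term, edgeR called 0 of the members at 4 h (2.75% of all genes), with 3 at an unadjusted p under 0.05. All 6 log2 fold changes were larger there than without that term, among them 3.94 for IL1R2 (edgeR adjusted p = 0.0811), 2.86 for CSF3R and 1.66 for S100A8. No 4 h library shared a set with a control, so set and time cannot be told apart within any set at 4 h. The missing calls therefore do not show that the members were unchanged at 4 h. In the joint test of the 7 times all 6 members were called, as were 83.2% of all genes. The 12 h calls leaned on replicate 1, without which 2 members remained, IL1R2 and S100A12. The 48 h calls leaned on replicates 1 and 3. Without replicate 1 edgeR called 0 members, with 1 at an unadjusted p under 0.05, and without replicate 3 it called 1.

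**Figure D2:**
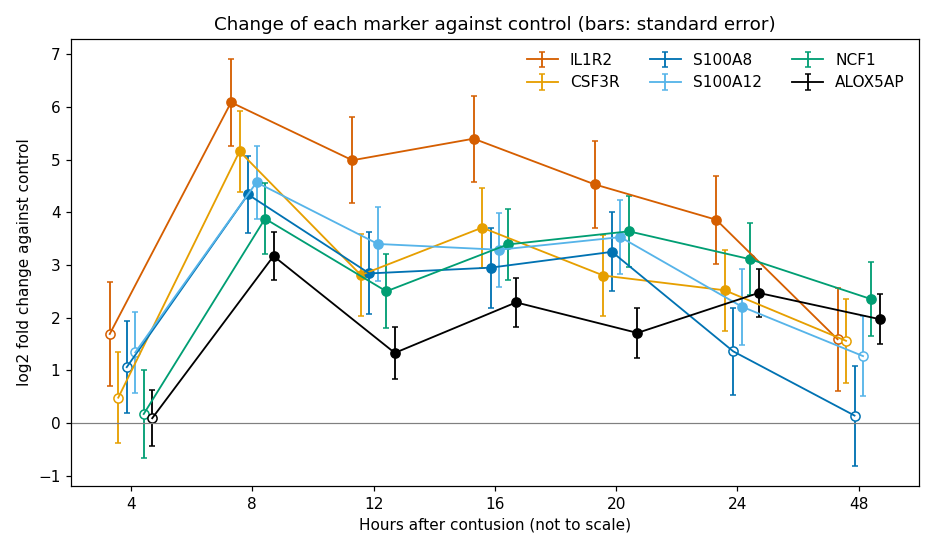
Log2 fold change of each of the 6 marker genes against the controls at 4 to 48 h, with standard errors. Filled points were called by edgeR and open points were not. At 4 h no gene was called, from 8 to 20 h all 6 were, and at 48 h NCF1 (2.35) and ALOX5AP (1.97) were.

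Within library sets that held controls, the rises at 8 and 12 h kept their direction in all 6 members. At 12 h this covers only replicates 1 and 2, the highest of that time. Replicates 3 and 4, with summed levels of 13.9 and 11.8 CPM, were in set 2, which held no control. In set 1 the summed level was 87.2 to 297 CPM in the 3 libraries at 8 h and 25.7 to 116 CPM in the 4 at 16 h, against 11.3 and 11.8 CPM in the 2 controls. All 6 members were called at 8 h (39% of all genes in either direction) and 4 at 16 h (29.2%), where CSF3R (2.50, edgeR adjusted p = 0.0532) and S100A8 (2.04, edgeR adjusted p = 0.142) were not. In set 4 the 12 h libraries summed to 126 and 34.0 CPM and the 20 h libraries to 53.7 and 33.1 CPM, against 3.57 to 6.81 CPM in 4 controls. There 6 members were called at 12 h (22.9% of all genes) and 5 at 20 h (37.4%), without S100A8 (1.99, edgeR adjusted p = 0.134). In set 5 the sum was 20.0 CPM in the 8 h library, 53.4 CPM in the 24 h library and 4.35 to 42.2 CPM in the 4 libraries at 48 h, against 2.31 to 5.18 CPM in 3 controls. There the log2 fold changes at 24 h, from 1 library, ran from 2.42 for ALOX5AP to 5.73 for CSF3R. At 48 h 2 members were called (3.4% of all genes), CSF3R (4.16, edgeR adjusted p = 0.0481) and S100A12 (3.99, edgeR adjusted p = 0.0456). Both rest on few counts, these controls holding 0 to 5 of CSF3R and 0 to 2 of S100A12. NCF1 (2.75, edgeR adjusted p = 0.0858) and ALOX5AP (1.81, edgeR adjusted p = 0.0925) were higher there too but did not pass.

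At 8 h set 5 held a single library, the lowest of its time for every member. Against the controls of its set, the log2 fold changes were 4.83 for IL1R2, 4.28 for CSF3R, 5.62 for S100A8 and 4.78 for S100A12, with 0.65 for NCF1 and 0.77 for ALOX5AP. IL1R2, S100A8 and S100A12 had 0 to 3 counts in these 3 controls, so their fold changes rest on very few counts. In set 1 the log2 fold changes at 8 h were 5.14 for IL1R2, 4.33 for CSF3R, 3.72 for S100A8, 3.95 for S100A12, 3.64 for NCF1 and 3.13 for ALOX5AP, and the difference between the sets was not tested. With 1 library in set 5, assumed to vary like the other groups, edgeR called 0 of them, 4 having an unadjusted p under 0.05 (2.17% of all genes called). With the 5 sets as a term in the fit, 6 members were called at 8, 12 and 20 h (42.1%, 26.4% and 49.3% of all genes in either direction), 5 at 24 h (47.1%) and 5 at 48 h (11.8%), but 1 at 16 h (27.4%), IL1R2.

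Between times, all 6 members were higher at 8 h than at 4 h, by log2 fold changes of 4.41 for IL1R2, 4.68 for CSF3R, 3.28 for S100A8, 3.23 for S100A12, 3.71 for NCF1 and 3.08 for ALOX5AP. The edgeR adjusted p-values were 0.000905 to 0.00826, and 16% of all genes were called higher. No set held libraries of both times, so set and time cannot be told apart here. With the sets as a term edgeR called 0 members and 0 genes, with 0 members and 841 genes at an unadjusted p under 0.05. From 8 h to 12 h the group means were lower for every member, and ALOX5AP passed the test (-1.84 ± 0.57, edgeR adjusted p = 0.0336), as a lower level did for 4.95% of all genes. No set held libraries of both 8 and 12 h, so here too set and time cannot be told apart. With the sets as a term edgeR called 0 members and 0 genes at this step, with 0 members and 873 genes at an unadjusted p under 0.05. The ALOX5AP call was also lost in 5 of 8 fits that left out 1 library, those without replicates 1 and 2 at 8 h or replicates 2, 3 and 4 at 12 h. CSF3R (-2.35 in the full fit) was called lower without replicate 1 at 12 h (-3.82, edgeR adjusted p = 0.0155). It was also called without replicate 4 at 8 h (-2.74, edgeR adjusted p = 0.0328). NCF1 was called lower without replicate 1 at 12 h (-2.66, edgeR adjusted p = 0.0341). In the 4 later steps, 16 h against 12 h, 20 h against 16 h, 24 h against 20 h and 48 h against 24 h, edgeR and DESeq2 called 0 members, with 0, 0, 1 and 1 at an unadjusted p under 0.05 by either tool. In those steps 14.2%, 2.16%, 3.21% and 19.5% of all genes were called in either direction.

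The members' levels at 48 h were compared with those at 8 h, while differences between members were not tested. Mean CPM at 48 h was 4.28% of the 8 h mean for IL1R2, 4.76% for S100A8, 8.05% for CSF3R and 9.68% for S100A12, and 33.9% for NCF1 and 43.1% for ALOX5AP. Single libraries moved several of these shares by over 1.5 times. Without replicate 1 at 48 h the share was 2.06% for S100A8, 4.44% for S100A12 and 19.5% for NCF1, and without replicate 1 at 8 h it was 12.4% for CSF3R, 14.7% for S100A12 and 51.6% for NCF1. The first 4 genes were lower at 48 h than at 8 h, by log2 fold changes of -4.51 ± 1.00 for IL1R2, -4.20 ± 0.97 for S100A8, -3.60 ± 0.97 for CSF3R and -3.30 ± 0.87 for S100A12 (edgeR adjusted p = 0.000673 to 0.00391, 16.9% of all genes lower). NCF1 (-1.53 ± 0.78, edgeR adjusted p = 0.118) and ALOX5AP (-1.20 ± 0.55, edgeR adjusted p = 0.0865) did not pass. Both were called lower without replicate 1 at 48 h (-2.33 and -1.73) or without replicate 4 at 8 h (-1.91 and -1.53), the edgeR adjusted p-values being 0.0243 to 0.0437. The ratio of ALOX5AP to IL1R2 counts, chosen after the values were seen and given without a test, was 10.8, 2.07, 8.67 and 22.0 at 48 h, where the last rests on 1 count of IL1R2. It was 0.840, 0.642, 0.642 and 1.32 at 8 h, against 2.17 to 14.3 in the 7 controls with a count of IL1R2. Thus 8 h stood below the controls, and 3 of the 4 libraries at 48 h were within or just under the control range. The 4 h ratios ran from 0.903 to 12.5 and those of 24 h from 1.31 to 5.52, and both overlapped the ranges of the controls, of 8 h and of 48 h. Of the 8 h libraries 3 are of set 1, while all 48 h libraries are of set 5. Within set 5 the log2 fold changes at 48 h against 8 h were -1.45 for IL1R2, -2.52 for S100A8, -0.12 for CSF3R, -0.79 for S100A12, 2.10 for NCF1 and 1.04 for ALOX5AP, and edgeR called 0 of them (3.76% of all genes), with 1 at an unadjusted p under 0.05. With the sets as a term edgeR called 0 (20.6% of all genes), also 0 at an unadjusted p under 0.05. The 8 h side of the contrast within set 5 is the single library above, so the missing call there does not show whether the lower level at 48 h depends on the set.

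**Figure D3:**
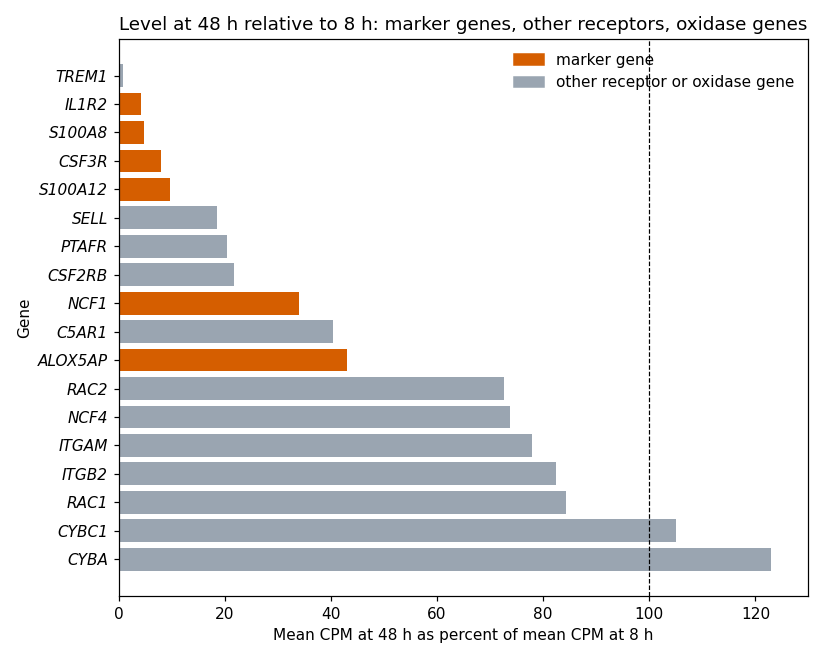
Mean CPM at 48 h as a percentage of mean CPM at 8 h for the 6 marker genes, in orange, and for all 7 other receptor and adhesion genes and 5 other oxidase genes tested, in grey. The dashed line marks an equal level. IL1R2, S100A8, CSF3R and S100A12 stand under 10%, with NCF1 at 33.9% and ALOX5AP at 43.1%, while CYBA is at 123%.

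In the order of group means, 8 h came first for all 6 members and the controls last. The groups between were ordered differently, with 16 h second for IL1R2 and CSF3R, 20 h second for the calgranulins and NCF1, and 24 h second for ALOX5AP. In every member each group's range overlapped that of the next in this order, which is not a test of their difference. The libraries that were high were largely the same for different members. Replicate 1 at 8 h was the highest of all 37 libraries for every member, and replicate 1 at 12 h was among the highest 5 for IL1R2, CSF3R, S100A8 and S100A12. Replicate 4 at 20 h was second for S100A8 and S100A12 but not among the highest 5 for the other 4. Over the 37 libraries, which share animals and sets, Spearman's rho between pairs of members ran from 0.647 for S100A8 with ALOX5AP to 0.947 for S100A8 with S100A12, as a description.

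Other receptor and adhesion genes listed for neutrophils were higher at the same times, though which cells carried their RNA was not tested. Of 18 listed, 7 were tested, and all 7 were called higher at 8, 16 and 20 h, 6 at 24 h and 5 at 12 and 48 h. PTAFR, the receptor of platelet-activating factor, averaged 13.7 CPM at 8 h, against 0.592 CPM in the controls (log2 fold change 4.50). CSF2RB, the shared chain of the receptors of GM-CSF, interleukin 3 and interleukin 5, rose by 4.68 on the log2 scale at 8 h. C5AR1, the receptor of the complement fragment C5a, rose by 3.50, and the integrin chain ITGB2, which lets leukocytes adhere firmly to vessel walls, by 2.97. Mean CPM at 48 h was 82.4% of the 8 h mean for ITGB2, 40.4% for C5AR1 and 20.4% for PTAFR, differences that were not tested. The 48 h libraries spread widely, ITGB2 running from 10.3 to 86.4 CPM, against 14 to 101 CPM at 8 h and 4.43 to 11.3 CPM in the controls, and C5AR1 from 5.41 to 33.8 CPM, against 3.97 to 91 CPM at 8 h and 2.5 to 6.3 CPM in the controls. The lowest 48 h library of each gene lay among the controls. TREM1, an amplifying receptor of neutrophils and monocytes named after its values were seen, stood at 0.829% of its 8 h mean. It averaged 0.0846 CPM at 48 h (range 0 to 0.184), against 10.2 CPM at 8 h (0.11 to 19.6) and 0.164 CPM in the controls. The 48 h and control means are under the level of 3 counts, so this share rests on very few counts.

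Among 6 other genes of the phagocyte NADPH oxidase, 5 were called higher at 8 h, 3 at 12 h, 6 at 16, 20 and 24 h, 4 at 48 h and 1 at 4 h. NCF4, the p40-phox subunit, rose by 3.07 on the log2 scale at 8 h and 2.65 at 48 h. CYBA, the p22-phox membrane subunit, rose by 1.94 at 8 h and 2.25 at 48 h, and CYBC1, a chaperone of the membrane complex, by 1.02 at 16 h.

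The leukotriene genes did not move as a group. Of 9 listed, 5 were tested, and their median log2 fold change against control lay between -0.49 and 0.22 over the 7 times. LTB4R, the receptor of leukotriene B4 on neutrophils, rose by 5.82 on the log2 scale at 8 h, to 9.74 CPM, against 0.156 CPM in the controls, which is under the level of 3 counts. It was also called at 12 h (2.83) and 16 h (2.84), and at 48 h its mean was 0.168 CPM. LTA4H, which makes leukotriene B4, changed by 0.34 at 12 h and -0.36 at 16 h. ALOX15, a 15-lipoxygenase, was lower at 20 h (-1.27), and GGT5, which cleaves leukotriene C4, was lower at 8 h (-1.59), 12 h (-1.38) and 20 h (-1.56).

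Of 11 other genes of the interleukin 1 axis, 5 were tested and all 5 were called higher at 8 and 16 h. IL1R1, the signalling receptor that IL1R2 competes with, was higher from 4 to 20 h, by 1.42 at 4 h and 2.16 at 8 h, to 94.6 CPM at 8 h, against 21.1 CPM in the controls. IL1R1 was not called at 24 h (0.75) or 48 h (0.67). MYD88, the adaptor of interleukin 1 and Toll-like receptors, was called at every time, with 2.04 at 8 h. CASP1, the protease that matures interleukin 1 beta, rose by 3.52 at 8 h, and NLRP3, a sensor that activates it, by 2.60.

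Of 13 genes that attract or mobilise neutrophils, 5 were tested, and 4 were higher at 8 h, 3 at 12 and 16 h, 2 at 20 h and 1 at 24 h. CXCL8, the main neutrophil chemokine, averaged 140 CPM at 8 h and 1.75 CPM at 48 h, against 3.89 CPM in the controls. Its 8 h libraries ran from 3.09 to 340 CPM, the lowest falling within the control range of 1.23 to 9.4 CPM. It was called at 8 h (log2 fold change 5.15), 12 h (3.38) and 16 h (4.73) but not at 48 h (-1.14). AMCF-II, a pig chemokine of the same kind, rose by 6.71 at 8 h, to 12.3 CPM, against a control mean of 0.0993 CPM that is under the level of 3 counts. IL6 rose at 4 h already (3.30) and by 4.17 at 8 h. CSF3, the ligand of CSF3R, was not called at 8 h, averaging 6.31 CPM at 8 h, against 5.88 CPM in the controls (0.11). It was called lower at 16 h (-2.64), 20 h (-3.32) and 24 h (-4.65). The controls spread widely, from 0.439 to 15.5 CPM. Each of these times overlapped them, with 0.206 to 2.16 CPM at 16 h, 0.28 to 1.1 CPM at 20 h and 0.072 to 0.643 CPM at 24 h.

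Other members of the S100 family were called from the earliest time. Of 15 listed, 7 were tested, and 4 were called higher at 4 h, when S100A8 and S100A12 were not called. The numbers higher were 5 at 8 and 12 h, 6 at 16, 20 and 24 h and 5 at 48 h. S100A10, a partner of annexin A2, rose by 1.71 at 4 h and 1.43 at 48 h, S100A11 by 1.54 and 2.49, and S100A2 by 2.56 and 2.98. S100A4 rose by 2.01 at 8 h and 2.65 at 48 h, while S100A1, a calcium sensor of muscle named after its values were seen, was lower from 4 to 16 h (-2.12 at 8 h). Of 7 receptors and co-receptors of calgranulins, 4 were tested. CD14 (4.30), which also marks monocytes, and TLR4 (1.88) rose at 8 h, LY96, the partner of TLR4, rose from 12 h on (0.91), and the fatty acid carrier CD36 was lower at 8 h (-2.19) and at each later time.

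Of 9 transcription factors of myeloid development, 7 were tested and all 7 were higher at 8 h and 6 at 16 h. At 4 and 12 h 2 were higher, while 3 were so at 20 and 24 h and 4 at 48 h. RUNX1 rose by 5.49 and KLF5 by 3.68 at 8 h, and both were called at all 7 times. SPI1, the master regulator of myeloid cells, rose by 2.33 at 8 h and 1.63 at 48 h. CEBPB, which drives emergency granulocyte production, averaged 693 CPM at 8 h, against 115 CPM in the controls (2.59), was called again at 16 h (2.57) and at no other time. Its 2 times are those whose libraries were all or mostly of set 1, and the part of the sets in its level was not tested.

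Only 2 of 16 listed granule and antimicrobial genes were tested, and they did not follow the members. LYZ, the lysozyme of neutrophils and macrophages, was higher at 4 h (1.85), 12 h (4.08), 20 h (4.40), 24 h (4.56) and 48 h (3.51), but was not called at 8 h (1.32) or 16 h (0.66), the same 2 times. MMP9, a gelatinase, was called at 8 h (1.78) and at 48 h (3.86). The part of the library sets in the level of LYZ was not tested.

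Monocyte and macrophage markers were higher beside the members, with the most called at 48 h. Of 20 listed, 16 were tested, and those higher numbered 1 at 4 h, 8 at 8 h and 7 at 12 h, then 11 at 16 h, 12 at 20 and 24 h and 15 at 48 h. Their sum was 374 ± 187 CPM at 8 h (range 152 to 603) and 503 ± 393 CPM at 48 h (range 155 to 933), against 124 ± 46.2 CPM in the controls (range 67.0 to 222). At 48 h against 8 h, 9 of the 16 were higher and CD14 was lower, where 20.5% of all genes were higher and 16.9% lower. Of the neutrophil markers 4 were lower in that comparison. MARCO, a macrophage scavenger receptor, was not called at 8 h (1.41, mean 0.419 CPM) but rose by 6.81 at 48 h. Its control mean of 0.16 CPM is under the level of 3 counts, and its 48 h libraries ran from 1.15 to 52.4 CPM, so the size of this rise is uncertain. GPNMB, a glycoprotein of lipid-laden macrophages, rose by 3.95 at 48 h, and the scavenger receptor MSR1 by 3.82 at 8 h and 3.74 at 48 h. At 48 h the same replicates were high in both lists, replicates 1 and 3 having 933 and 742 CPM of macrophage markers and 42.2 and 28.3 CPM of neutrophil markers, against 155 and 185 CPM and 8.75 and 4.35 CPM in replicates 2 and 4. How much of NCF1 and ALOX5AP at 48 h came from macrophages was not tested.

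**Figure D4:**
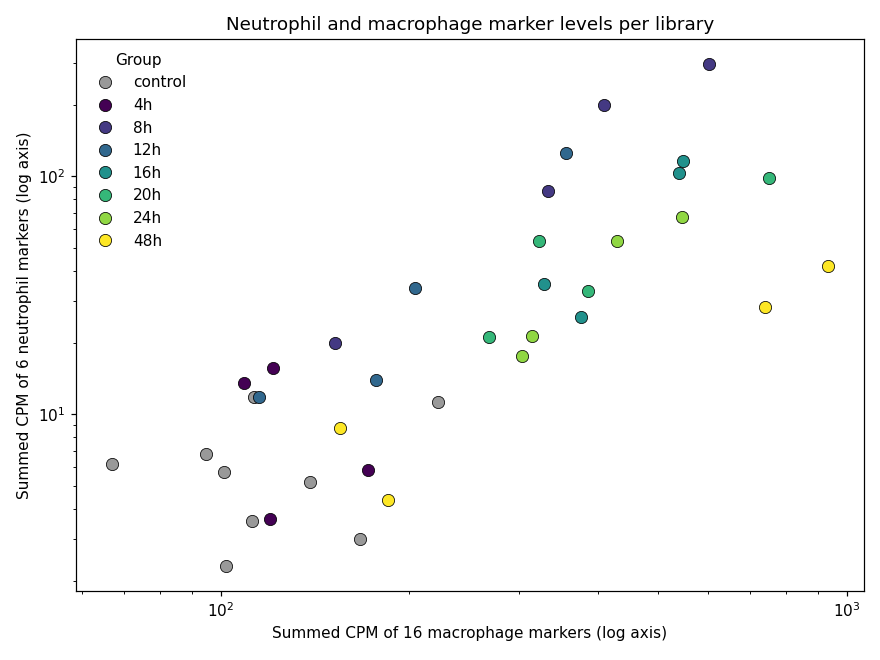
Summed CPM of the 6 neutrophil markers against summed CPM of 16 macrophage markers in each library (log axes), coloured by time. The 8 h libraries reach 297 CPM of neutrophil markers at 603 CPM of macrophage markers, and the 48 h libraries 42.2 CPM at 933 CPM.

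Markers of further cell types were few in the table. The 2 of 17 lymphocyte markers tested, NKG7 and the pan-leukocyte PTPRC, were higher at 8 h and at each time from 16 h, and their sum was 17.2 to 141 CPM at 8 h, against 8.37 to 20.0 CPM in the controls. PTPRC, which all leukocytes carry, rose by 2.87 at 8 h. The 3 tested of 12 mast cell, eosinophil and basophil markers summed to 16.0 to 20.2 CPM at 8 h, against 14.6 to 37.9 CPM in the controls, and KIT, the mast cell growth factor receptor, was lower at 8 h (-1.15). The 3 tested of 11 markers of keratinocytes, which can also make calgranulins, summed to 18.4 to 26.8 CPM at 8 h, against 20.4 to 29.8 CPM in the controls. KRT14 was not called at any time. DSP was higher at 12 h (0.39) and from 16 h (0.75) to 24 h (0.62), while KRT10 was lower at 8 h (-0.77) and from 16 h (-0.75) to 24 h (-0.68). Of the 3 tested erythrocyte and platelet markers of 13, HBB (1.52) and ALAS2 (1.91) were higher at 16 h, and ITGA2B, the platelet integrin, was lower at 8 h (-0.93). Their sum was 181 to 317 CPM at 8 h, against 152 to 556 CPM in the controls. Endothelial markers, 8 tested of 10, included 3 called lower at 8 h, among them EMCN (-1.18). Over all genes 25.8% were called higher at 8 h. Those made up 47.7% of the genes called, so lower calls were slightly more frequent than higher ones. Of the 7 tested muscle fibre markers of 15, 1 was called lower at 8 h, MYH7 (-2.15), the slow myosin, while the median log2 fold change of the 7 was 0.57. At 4 h 2 were called higher, the fast troponins TNNI2 (1.15) and TNNT3 (1.09), the second named after its values were seen.

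Among the genes whose level over the 37 libraries was most like the mean of the 6 members were ADAM8 (Spearman's rho 0.968), a metalloprotease of leukocytes, CCR1 (0.96), a chemokine receptor, and AQP9 (0.954), a channel for water and glycerol. SRGN (0.953), the proteoglycan of leukocyte granules, the Src family kinases LYN (0.951) and FGR (0.947), XPO6 (0.946), an exporter of actin from the nucleus, HK3 (0.946), a hexokinase, and MTA2 (0.943), a subunit of a chromatin remodelling complex, followed. Within the 28 injured libraries the values for these 9 genes ran from 0.924 to 0.971. The libraries share animals and sets, so these values describe likeness in these libraries and carry no test.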

How the data were processed

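RNA of 37 minipig muscle libraries was extracted with Trizol and sequenced on a HiSeq-2500 instrument, per the labels' protocols. The deposited values are whole-number read counts per gene, made by the authors with Trimmomatic, HISAT2 2.2.1 and HTSeq on Sscrofa11.1, per the submitters' processing notes, with FastQC and MultiQC for quality. The annotation and the strand setting are not given in the sources used here. Groups were taken from the labels, and gene spans from RefSeq.

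The counts were tested with edgeR 4.0.16 in R 4.3.3 (TMM scaling, filterByExpr, robust quasi-likelihood fit of 37 libraries with group as the only factor, Benjamini-Hochberg adjustment over 9411 genes at 0.05). DESeq2 1.42.0 was an alternative. The fit was checked on simulated counts with known changes at 8 h against control. It recovered 67% of the genes with a log2 change of 1 in size and 100% of those with 3. Of the genes called, 2.98% were false. The simulated counts had no library sets and no shared animals, so the check does not cover these. Column totals were 9.86 to 22.88 M counts. No libraries of a group agreed within sampling noise (lowest chi-square per degree of freedom 16.1). Library sets were defined by a total above 20 M (set 3), C1QBP above 8 CPM (set 1), NDUFAF8 under 4 CPM (set 2), ND6 at or under 32 CPM (set 4) and the rest (set 5).

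The members, the gene lists, the sets and the tests were chosen with earlier results of these data known. From each list, at most 4 genes with the smallest p over the 7 times are named, others being marked as chosen after their values were seen. As likeness, the 10 genes with the highest Spearman's rho to the mean log2(CPM + 0.5) of the members were taken. Each member was first centred and scaled by its standard deviation over the libraries. Some genes that these rules select are not reported here. Alternatives were other scalings and filters, DESeq2, a replicate block, only the compared groups, the sets as a term, and leaving out sets or single libraries. Contrasts within sets were added after seeing the data.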

Additional observations from a re-analysis of the deposited data

Results flagged for a closer look

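Among 56 groups of libraries tested on log2(CPM + 0.5) for a library far from the rest, 2 were picked out, where chance picks about 1 in 20. IL1R2 had 0.0966 CPM in replicate 4 at 48 h, far below the 1.47, 1.46 and 1.39 CPM of the other 3 libraries. S100A12 had 26.2 CPM in replicate 4 at 20 h, far above the 5.5, 5.83 and 4.61 CPM of the others.

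The level of all 6 members at 8 h differed from that at 4 h, by log2 changes of 4.41 for IL1R2, 4.68 for CSF3R, 3.28 for S100A8, 3.23 for S100A12, 3.71 for NCF1 and 3.08 for ALOX5AP in edgeR's test of the difference between times. ALOX5AP differed at 12 h from 8 h by -1.84. At 48 h against 8 h the changes were -4.51 for IL1R2, -3.60 for CSF3R, -4.20 for S100A8 and -3.30 for S100A12. The 8 h libraries share no library set with those of 4 h or of 12 h, so set and time cannot be told apart in these 2 comparisons, and 1 of the 8 h libraries shares a set with those of 48 h.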

How the results depend on the processing

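The calls of all 6 members at 8 h kept their number under every alternative run but the contrast within set 5, where 1 library gave 0 calls by edgeR and 4 members at an unadjusted p under 0.05. Members called at 20 h numbered 5 or 6 throughout. Same-numbered libraries did not deviate together (median correlation -0.011 over 84 pairs, 0.004 over 252 pairs with different numbers), so the numbers are not taken to pair libraries. With the replicate block 2 members were called at 12 h, 3 at 24 h and 1 at 48 h, CSF3R at 4 h was -0.39, NCF1 at 4 h -0.14 and S100A8 at 48 h -0.67.

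With the 5 sets as a term, 1 member was called at 16 h and 5 at 48 h, and 0 at 8 h against 4 h, 12 h against 8 h and 48 h against 8 h, while at 12 h against 8 h IL1R2 was 0.59 and NCF1 0.39, and at 48 h against 8 h NCF1 was 0.45. All genes called with that term numbered 259 at 4 h (1721 without it), 2575 at 16 h (4995), 1108 at 48 h (1906), 0 at 8 h against 4 h (2950), 0 at 12 h against 8 h (1138), 0 at 16 h against 12 h (1339), 0 at 20 h against 16 h (203), 54 at 24 h against 20 h (302), 842 at 48 h against 24 h (1832) and 1942 at 48 h against 8 h (3514). At the 4 steps where edgeR called 0 genes with that term, 841, 873, 548 and 645 genes had an unadjusted p under 0.05. Within sets, which was chosen after seeing the data, 2753 genes were called at 16 h in set 1 and 29 at 24 h against 20 h in set 2. In set 5 there were 204 at 8 h (5084 over all sets), 1099 at 24 h (5071), 320 at 48 h, 99 at 48 h against 24 h and 354 at 48 h against 8 h, with 0 members called by edgeR at 48 h against 8 h, where NCF1 was 2.10 and ALOX5AP 1.04.

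Without set 2, which leaves 1 library at 4 h, 658 genes were called at 4 h, 128 genes and 0 members at 8 h against 4 h (log2 fold changes of 2.26 to 4.37, 4 members at an unadjusted p under 0.05), 243 and 0 at 12 h against 8 h, 64 at 16 h against 12 h, 20 at 20 h against 16 h and 109 at 24 h against 20 h, with NCF1 at -0.48 and ALOX5AP at -0.38 at 4 h. Without set 3 the counts were 1133 at 4 h, 13 at 24 h against 20 h and 799 at 48 h against 24 h. Scaling by column totals gave 3348 genes at 48 h, 648 genes and 0 members at 12 h against 8 h, 118 genes at 20 h against 16 h, and ALOX5AP at -0.07 at 4 h. It moved the median of all genes by -0.15 at 4 h and by 0.33 to 0.48 from 16 to 48 h, and the share of higher among called genes to 20.9% at 4 h (50.4% with TMM), 72.9% at 16 h (47.6%) and 71.3% at 20 h (49.2%), then 79.4% at 24 h (49.7%) and 91.1% at 48 h (63.2%), and to 87.8% at 48 h against 8 h (54.8%), 78.9% at 12 h against 8 h (59.1%), 83.5% at 16 h against 12 h (33.2%) and 77.2% at 24 h against 20 h (60.3%). DESeq2 called 412 genes at 20 h against 16 h and 559 at 24 h against 20 h. With only the compared groups in the fit, 932 genes were called at 48 h, 234 genes and 0 members at 12 h against 8 h, 444 at 20 h against 16 h and 903 at 48 h against 24 h.

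Leaving out 1 library at a time, members called ranged from 2 to 6 at 12 h, 0 to 2 at 48 h, 0 to 3 at 12 h against 8 h and 0 to 1 at 16 h against 12 h. All genes called ranged from 608 to 1954 at 4 h, 1827 to 3046 at 12 h and 368 to 2732 at 48 h. Between times the ranges were 1610 to 3536 at 8 h against 4 h, 135 to 1895 at 12 h against 8 h, 567 to 1788 at 16 h against 12 h, 65 to 131 at 20 h against 16 h, 98 to 310 at 24 h against 20 h and 1048 to 2442 at 48 h against 24 h. At 4 h NCF1 ranged from -0.43 to 0.46 and ALOX5AP from -0.08 to 0.28, and at 48 h S100A8 from -1.07 to 0.75. Fits with fewer libraries have less power, and the cause of the other differences was not tested. Under 3 counts in most controls limits the fold changes of S100A8.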
